A study of Apostichopus japonicus with 12 samples.

Results

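Chaperonins are barrel-shaped protein complexes that enclose unfolded proteins and fold them with the energy of ATP. The 10 genes described here are the 8 subunits of the cytosolic chaperonin CCT, also called TRiC, and the mitochondrial pair HSP60 and HSP10, measured in intestine of Apostichopus japonicus, a sea cucumber. They were taken by name, as every gene model of the deposited table whose Swiss-Prot match was a T-complex protein 1 subunit or a mitochondrial 60 kDa or 10 kDa heat shock protein, which gave 10 of 26461 models.

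The intestines came from 4 groups with 3 libraries each, taken after 6 h. Animals of the combined group stood at 26 °C with dissolved oxygen at 3 mg/L, and those of the high temperature group also at 26 °C but with 7 mg/L. The low oxygen group had 3 mg/L at 18 °C, and the control was kept at 18 °C. For the control the series' own description names 3 mg/L as well, which would equal low oxygen. The oxygen of the control is therefore in doubt, and with it every comparison that uses the control. Were it 3 mg/L, all 6 libraries at 18 °C would have had 3 mg/L, while the high temperature group had 7 mg/L. RNA came from single animals per the labels, but whether the animals of a group shared a tank is not given there, so p-values measure the spread between these samples.

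CCT is built from stacked rings in which each of the different subunits has a fixed place, and it folds actin, tubulin and a further set of cytosolic proteins. The prefoldin complex hands unfolded actin and tubulin to it. HSP60 works in the mitochondrial matrix on imported proteins, and HSP10 closes the HSP60 barrel as a lid. Genes of these families are known in many animals to be induced by heat, together with the HSP70 and HSP90 systems.

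Each of the 8 CCT subunits, alpha to theta and here called CCT1 to CCT8, was found in exactly 1 model, and HSP60 and HSP10 in 1 model each. All 10 carried the Pfam domain of their family, the TCP-1/cpn60 chaperonin domain for CCT and HSP60 and the chaperonin 10 kDa subunit domain for HSP10. The CCT genes lay on 8 different chromosomes in the coordinates of the table, which names no genome build. CCT1 (evm_TU_Chr4_9) lay on chromosome 4 at 156774 to 182580, minus strand, with 12 exons. CCT2 (evm_TU_Chr18_352) lay on chromosome 18 at 10989038 to 11012883, minus strand, with 14 exons. CCT3 (evm_TU_Chr16_416) lay on chromosome 16 at 13809357 to 13829826, plus strand, with 16 exons. The gene of CCT4 (evm_TU_Chr2_65) was on chromosome 2 at 2040382 to 2050799, plus strand, with 14 exons, and 652 bases separated it from FAM161A on the other strand. The gene of CCT5 (evm_TU_Chr10_185) was on chromosome 10 at 5854480 to 5867601, minus strand, with 11 exons. The gene of CCT7 (evm_TU_Chr17_609) was on chromosome 17 at 20144033 to 20157198, plus strand, with 10 exons. CCT8 (evm_TU_Chr19_520) had 14 exons on chromosome 19 at 16407388 to 16422404, plus strand.

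The CCT6 model (evm_TU_Chr11_766) differed from the rest. It spanned chromosome 11 from 22363516 to 22394005 on the minus strand with 26 exons and 1201 codons, against 501 to 551 codons in the other 7 subunits, and it carried a SET domain beside the chaperonin domain. A SET domain is the catalytic part of protein methyltransferases and is no part of CCT6 in other animals, so the level given for CCT6 is that of a model that holds more than CCT6.

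HSP10 and HSP60 lay side by side. HSP10 (evm_TU_Chr20_578) occupied chromosome 20 from 19388437 to 19391918 on the minus strand, with 4 exons and 103 codons. HSP60 (evm_TU_Chr20_579) occupied 19393513 to 19401895 on the plus strand, with 11 exons and 615 codons. They pointed away from each other with 1594 bases and no other model between them, the head-to-head order also known for this pair in mammals. Of all 26461 models, 2650 (10.01%) had a neighbour on the other strand, pointing away, at most that far off. The 3′ end of HSP60 was 78 bases from SF3B1, a splicing factor gene on the minus strand. The library protocol names no step that keeps the strand, so reads in that stretch could be given to either gene.

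Recovered fragments per library ranged from 8146906 to 10855050, and single chaperonin genes had 33 to 10533 fragments in a library. All 10 passed the filter on low values (3 libraries with an FPKM of 1 or more), as did 15615 models in all. FPKM scales fragments by model length and library size, so levels of different genes are compared here per length. Libraries combined 1 and combined 3 stood apart in how the authors had scaled them: the library size inside the FPKM was 0.529 and 0.526 of the fragment total there, against 0.935 to 1.58 in the other 10 libraries. FPKM in those libraries is therefore raised relative to fragments scaled by the library total, and results with the combined group are also given under another scaling below. In bulk tissue a lower level can come from fewer cells of a type or from less RNA per cell, and these cannot be told apart. Of 30 digestive enzyme models, 29 were above 0 in at least 1 library, and 19 passed the filter on low values. Being above 0 in a library also held for 26 of 28 neuron models and 4 of 5 germ line models. It held for 29 of 30 models of immune cells of the body cavity as well. Such counts therefore cannot identify the tissue.

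**Figure D1:**
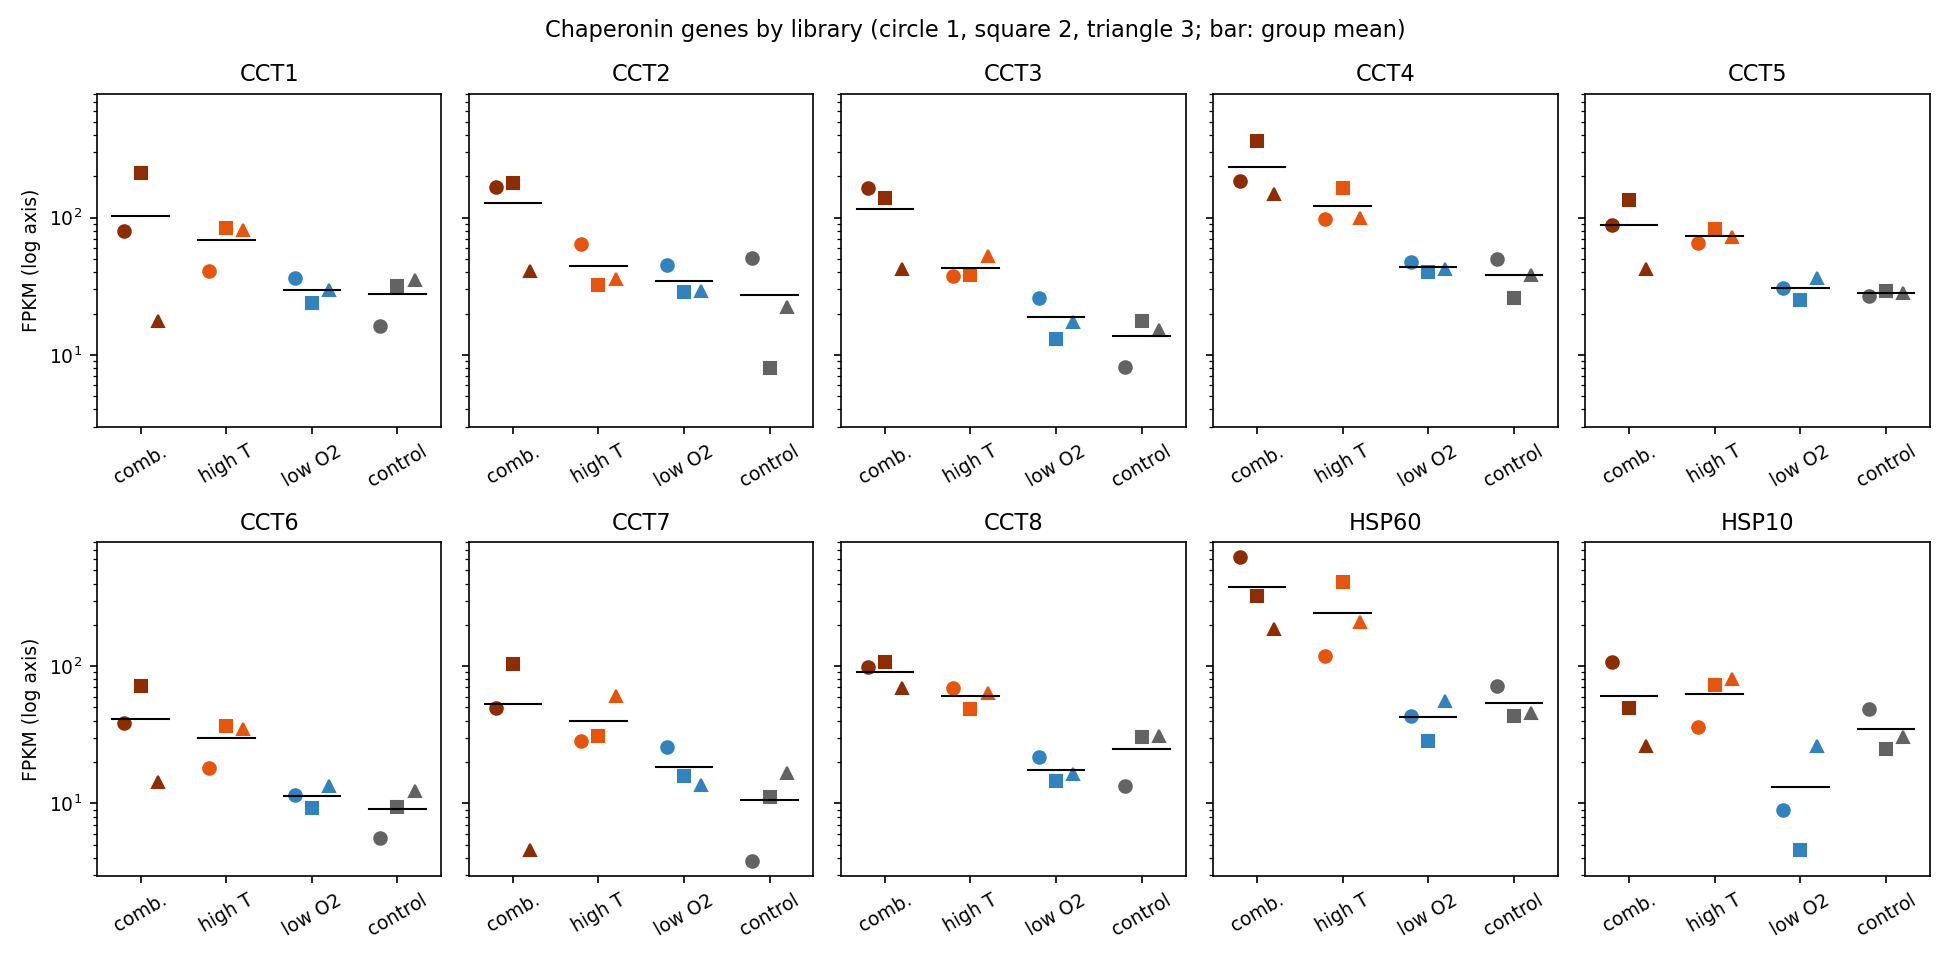
FPKM of each chaperonin gene in every library on a log axis, with groups from left to right combined, high temperature, low oxygen and control, a symbol for each library number and a bar at the group mean. HSP60 reached 622 FPKM in combined 1 and CCT4 364 FPKM in combined 2, while no CCT gene exceeded 51.0 FPKM in a library at 18 °C.

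The question of the design that involves all 12 libraries is how the intestine at 26 °C, with and without low oxygen, compared with that at 18 °C. If the control was at 3 mg/L, oxygen also differed between the temperatures, and temperature and oxygen cannot be fully told apart in this comparison. HSP60 and the CCT subunits CCT3, CCT4 and CCT8 rose at 26 °C, by between 1.81 and 2.51 on the log2(FPKM + 1) scale. For the other 6 genes the fold change was positive too but missed the threshold, an adjusted p under 0.05 in limma over all genes. Thus 4 of 10 chaperonin genes were called higher, where 0.423% of all 15615 genes tested were, and the median log2 fold change was 1.53 for the 10 genes and -0.03 for all genes. In 6 of the 10 (CCT3, CCT4, CCT5, CCT6, CCT8 and HSP60) every library at 26 °C lay above every library at 18 °C, which held for 0.64% of all genes.

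HSP60 measured 622, 324 and 186 FPKM in the combined group and 118, 407 and 208 FPKM at high temperature, against 43.2, 28.6 and 56.0 FPKM in low oxygen and 72.0, 43.4 and 45.8 FPKM in the control. The lowest warm library, high temperature 1, was above the highest cool one, control 1, so the temperatures did not overlap, and the warm libraries themselves spread widely. The mean was 311 ± 184 FPKM at 26 °C and 48.2 ± 14.6 FPKM at 18 °C (SD, n = 6 each), a ratio of 6.45. The log2 fold change was 2.51 (SE 0.38, 95% interval 1.69 to 3.33, limma adjusted p = 0.00949), the largest of the 10 genes. SF3B1, whose end nearly meets that of HSP60, did not share this order: it was highest in control 1 at 134 FPKM and lay between 46.9 and 82.4 FPKM in the other 11 libraries.

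HSP10, the lid of the HSP60 barrel, measured 107, 49.2 and 26.1 FPKM in the combined group and 35.8, 72.8 and 80.1 FPKM at high temperature, against 8.996, 4.55 and 26.2 FPKM in low oxygen and 48.8, 24.9 and 30.6 FPKM in the control. The temperatures overlapped, since combined 3 was within the range of the control and control 1 above 2 warm libraries. Its log2 fold change at 26 °C was 1.51 (SE 0.44, 95% interval 0.54 to 2.47, limma adjusted p = 0.238), which did not pass.

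Among the CCT subunits, CCT4 was the most abundant per length. When the human proteins are made in bacteria, CCT4 and CCT5 can form rings without the other subunits. CCT4 measured 186, 364 and 147 FPKM in the combined group and 97.4, 166 and 99.3 FPKM at high temperature, against 47.9, 40.5 and 42.5 FPKM in low oxygen and 50.3, 26.1 and 38.0 FPKM in the control. Every warm library was at least at 97.4 FPKM and no cool library above 50.3 FPKM. CCT4 averaged 177 ± 98.5 FPKM at 26 °C and 40.9 ± 8.58 FPKM at 18 °C (SD, n = 6 each), with a log2 fold change of 1.96 (SE 0.29, 95% interval 1.32 to 2.60, limma adjusted p = 0.00947).

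CCT8 measured 98.0, 107 and 68.8 FPKM in the combined group and 68.9, 48.7 and 63.2 FPKM at high temperature, against 21.9, 14.5 and 16.4 FPKM in low oxygen and 13.4, 30.3 and 31.0 FPKM in the control. Its warm libraries were the tightest of the 4 genes that rose, with 75.8 ± 22.2 FPKM at 26 °C and 21.3 ± 7.86 FPKM at 18 °C (SD, n = 6 each), and the temperatures did not overlap. The log2 fold change was 1.81 (SE 0.28, 95% interval 1.21 to 2.41, limma adjusted p = 0.00973). CCT3 measured 165, 140 and 42.0 FPKM in the combined group and 37.3, 38.2 and 52.9 FPKM at high temperature, against 25.9, 13.1 and 17.5 FPKM in low oxygen and 8.21, 17.7 and 15.1 FPKM in the control. For CCT3 the temperatures did not overlap either, but combined 1 and combined 2 stood well above the other 4 warm libraries. Its log2 fold change was 2.01 (SE 0.36, 95% interval 1.22 to 2.79, limma adjusted p = 0.0284). This call ended without combined 1, low oxygen 2, low oxygen 3 or any single high temperature or control library.

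The remaining 5 subunits did not pass in this comparison. CCT5, in which inherited human mutations cause a sensory neuropathy, measured 88.0, 135 and 42.2 FPKM in the combined group and 65.1, 82.0 and 72.7 FPKM at high temperature, against 30.6, 25.0 and 36.2 FPKM in low oxygen and 27.0, 29.0 and 28.1 FPKM in the control. The CCT6 model measured 38.6, 71.6 and 14.2 FPKM in the combined group and 18.0, 36.8 and 35.0 FPKM at high temperature, against 11.6, 9.25 and 13.4 FPKM in low oxygen and 5.63, 9.40 and 12.4 FPKM in the control. In both genes the lowest warm library was above the highest cool one, and their 95% intervals stayed above 0, at 0.74 to 1.98 around 1.36 for CCT5 (limma adjusted p = 0.0693) and 0.74 to 2.38 around 1.56 for CCT6 (limma adjusted p = 0.131).

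CCT1, CCT2 and CCT7 overlapped between the temperatures. CCT1 is the founding member of the family, known from the mouse t-complex, and it measured 79.8, 212 and 17.7 FPKM in the combined group and 40.8, 84.2 and 81.3 FPKM at high temperature, against 36.1, 23.8 and 29.9 FPKM in low oxygen and 16.4, 31.7 and 35.0 FPKM in the control. CCT7 measured 49.8, 104 and 4.55 FPKM in the combined group and 28.4, 31.2 and 60.4 FPKM at high temperature, against 25.6, 15.9 and 13.7 FPKM in low oxygen and 3.83, 11.2 and 16.6 FPKM in the control. In both of these genes a single warm library, combined 3, lay inside the cool range, and the 5 others were above all 6 cool libraries. CCT2 measured 166, 178 and 41.2 FPKM in the combined group and 64.4, 32.3 and 35.9 FPKM at high temperature, against 45.2, 28.5 and 29.4 FPKM in low oxygen and 51.0, 7.99 and 22.3 FPKM in the control. Here 3 warm libraries were above all cool ones, and control 1 was higher than the other 2 control libraries. The log2 fold changes at 26 °C were 1.22 for CCT1 (95% interval 0.15 to 2.30, limma adjusted p = 0.386), 1.30 for CCT2 (0.28 to 2.32, adjusted p = 0.338) and 1.33 for CCT7 (-0.01 to 2.67, adjusted p = 0.436).

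How many genes passed at 26 °C depended on combined 3 and on the scaling. Without combined 3, 7 of 10 passed in limma, where 123 of all 15615 genes were called higher, against 66 with every library. In the deposited scaling CCT4, CCT8 and HSP60 passed under every alternative run. When every library was given the same FPKM total, 0 of 10 passed, and 23 of all 15615 genes were called higher. This scaling moved the median of all genes to -0.46. The fold changes of all 10 chaperonin genes were still positive. Their median exceeded that of all genes by 1.54, against 1.57 in the deposited scaling.

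**Figure D2:**
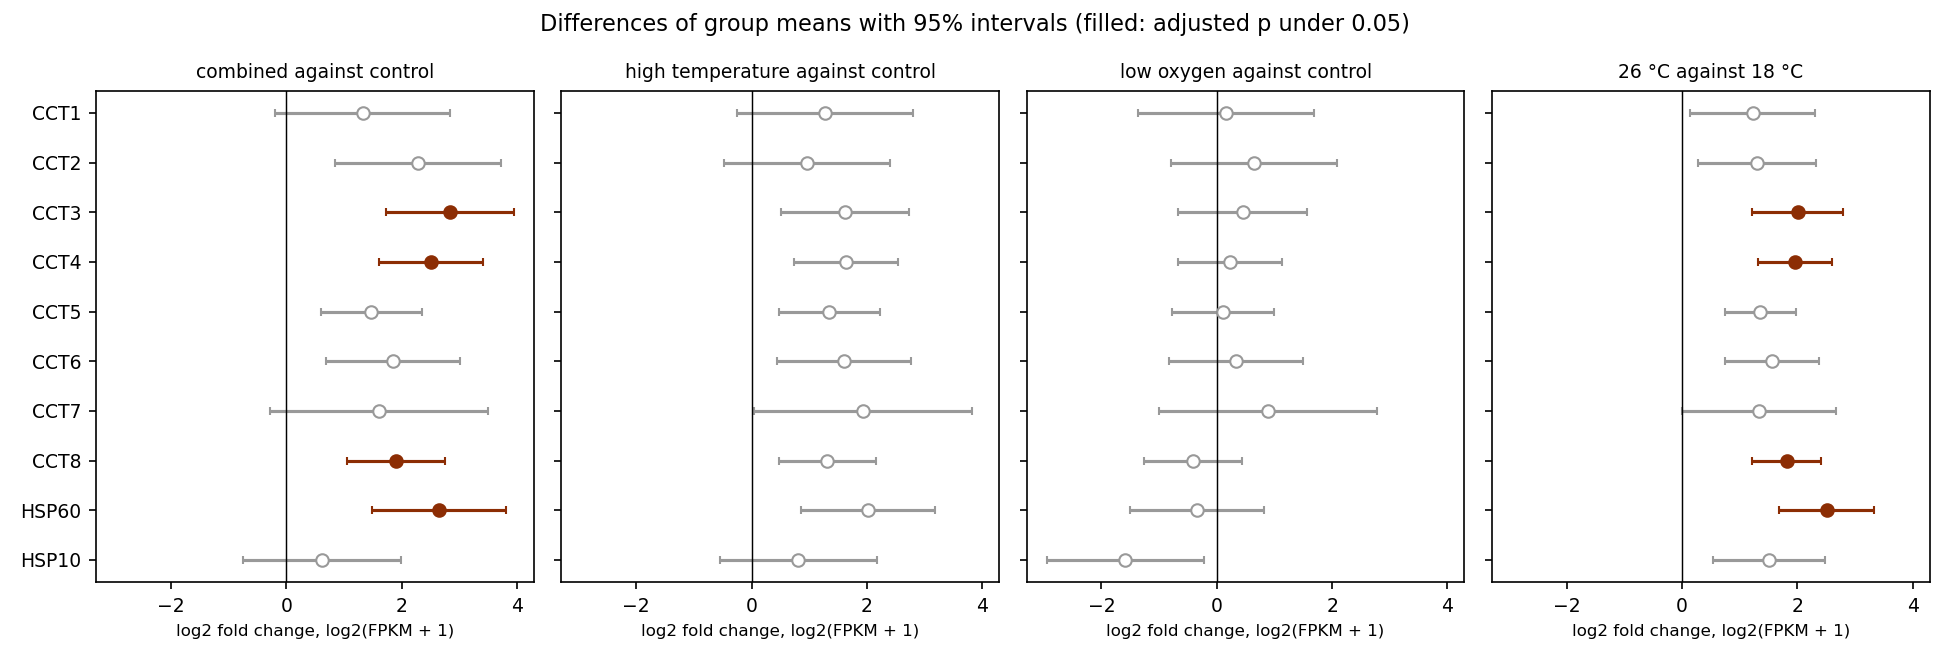
Log2 fold changes of the 10 chaperonin genes on the log2(FPKM + 1) scale with 95% intervals from limma, in 4 comparisons; filled points had an adjusted p under 0.05. Filled points are CCT3, CCT4, CCT8 and HSP60 for combined against control and for 26 °C against 18 °C, and there are none for high temperature or low oxygen against control.

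Both stresses at once were compared with neither as labelled, the combined group against the control. CCT3, CCT4, CCT8 and HSP60 rose, 4 of 10 where 0.596% of all genes were called higher, and all 10 fold changes were positive with a median of 1.88, against -0.05 over all genes. CCT3 averaged 116 ± 65.2 FPKM in the combined group and 13.7 ± 4.90 FPKM in the control (SD, n = 3 each), a log2 fold change of 2.84 (SE 0.51, limma adjusted p = 0.0253). HSP60 averaged 377 ± 223 FPKM in the combined group and 53.8 ± 15.9 FPKM in the control, a log2 fold change of 2.65 (SE 0.54, limma adjusted p = 0.0454). CCT4, at 2.51 (SE 0.42, adjusted p = 0.0145), and CCT8, at 1.90 (SE 0.39, adjusted p = 0.0488), completed the 4. The libraries of these 4 genes, CCT5 and CCT6 did not overlap between the groups, which held in the same direction for 6.36% of all genes. In the same comparison 60 of 63 cilia markers had positive fold changes, with a median of 1.10 and 0 past the threshold in limma (21 at an unadjusted p under 0.05). Of all 15615 genes, 2148 had such a p.

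HSP10 had the smallest fold change in that comparison, at 60.7 ± 41.6 FPKM in the combined group and 34.8 ± 12.5 FPKM in the control (SD, n = 3 each), with overlapping libraries and a log2 fold change of 0.62 (95% interval -0.75 to 1.98, limma adjusted p = 0.700). CCT2 had a larger difference, 2.29 (95% interval 0.84 to 3.73, adjusted p = 0.169), which its spread kept from passing. The count for this comparison was fragile. It was 8 of 10 without combined 3, 2 without high temperature 3 or any low oxygen library, 1 without combined 1, combined 2 or control 1, and 0 without control 2 or control 3. It was also 0 with equal FPKM totals and 2 in voom on the recovered fragments. Over all 15615 genes, 93 were called higher with every library. That number was 186 without combined 3, 128 without combined 2 and 48 without combined 1. It was 43 to 62 without 1 control library, 67 to 71 without 1 low oxygen library and 70 without high temperature 3. Equal totals gave 37 and voom 57.

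Warming with oxygen at 7 mg/L, the high temperature group against the control, gave 0 of 10 chaperonin genes past the threshold in limma, where 0.0448% of all genes were called higher. All 10 fold changes were nevertheless positive, from 0.81 for HSP10 to 2.02 for HSP60, with a median of 1.48 against -0.01 over all genes. The unadjusted p was under 0.05 in 7 of the 10 in limma, and voom likewise called 0 with 7 under an unadjusted 0.05. Of all 15615 genes, 1027 were under it in limma and 1184 in voom. In 8 of the 10, all but CCT2 and HSP10, the 3 warm libraries were above the 3 control libraries, which was so for 6.87% of all genes. HSP60 averaged 244 ± 148 FPKM at high temperature and 53.8 ± 15.9 FPKM in the control (SD, n = 3 each), with an interval of 0.86 to 3.19 around 2.02 (limma adjusted p = 0.292). CCT4 had the lowest adjusted p of the 10, 0.253, at 121 ± 38.8 FPKM in the high temperature group and 38.1 ± 12.1 FPKM in the control, with an interval of 0.74 to 2.54 around 1.64. CCT5 was the tightest, at 73.3 ± 8.49 FPKM at high temperature and 28.0 ± 1.0 FPKM in the control, with a log2 fold change of 1.35 (95% interval 0.47 to 2.23, limma adjusted p = 0.443). With limma's library weights, 3 of the 10 passed, CCT4, CCT5 and HSP60. The weights also raised the genes called higher over all 15615 from 7 to 71, so counts here turned on how the libraries were weighted.

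Low oxygen at 18 °C against the control showed no chaperonin gene past the threshold. The count was 0 of 10 in limma and in voom, where limma called 0.0064% of all genes in either direction. An unadjusted p under 0.05 was found for 1 of 10 in each tool, and for 984 of all 15615 genes in limma and 1072 in voom. The fold changes had both signs, 7 positive and 3 negative, with a median of 0.20. The single chaperonin gene under an unadjusted 0.05 in limma was HSP10, at 13.2 ± 11.4 FPKM in low oxygen and 34.8 ± 12.5 FPKM in the control (SD, n = 3 each), a log2 fold change of -1.59 (SE 0.63, 95% interval -2.95 to -0.22, limma adjusted p = 0.736). Its low oxygen libraries overlapped the control through low oxygen 3, at 26.2 FPKM. For CCT4 and CCT5 the intervals were the narrowest of the CCT subunits with a positive difference, -0.67 to 1.14 and -0.77 to 0.99, and for CCT7 the interval was widest, -1.0 to 2.78.

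Under shared low oxygen, the combined group against the low oxygen group, HSP60, CCT8 and CCT4 rose. HSP60 differed by 3.00 (SE 0.54, limma adjusted p = 0.0325), CCT8 by 2.31 (SE 0.39, adjusted p = 0.0229) and CCT4 by 2.28 (SE 0.42, adjusted p = 0.0357). That made 3 of 10 where 0.397% of all genes were called higher, and the libraries of CCT3, CCT4, CCT5, CCT6, CCT8 and HSP60 did not overlap, against 7.71% of all genes. CCT3 had the largest fold change of the subunits, 2.39 (SE 0.51, adjusted p = 0.0862), without passing. HSP10 measured 60.7 ± 41.6 FPKM in the combined group and 13.2 ± 11.4 FPKM in low oxygen (SD, n = 3 each), a difference of 2.20 with an interval of 0.84 to 3.57 (adjusted p = 0.252). Leaving out combined 1, combined 2 or any low oxygen library left 0 of 10, leaving out high temperature 3, control 2 or control 3 left 1, leaving out combined 3 gave 5, and equal FPKM totals left 0. Over all 15615 genes, 62 were called higher with every library and 111 without combined 3. That number was 36 without combined 1, 61 without combined 2 and 32 to 35 without 1 low oxygen library. It was 48 without high temperature 3, 46 without control 2, 52 without control 3 and 21 with equal totals.

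High temperature against low oxygen, in which both temperature and oxygen differed, gave 0 of 10 in limma and in voom, where 0.0064% of all genes were called higher, although 7 of 10 had an unadjusted p under 0.05 in each tool. Such a p was found for 770 of all 15615 genes in limma and 874 in voom. All 10 fold changes were positive with a median of 1.25, and the largest were 2.40 for HSP10 (95% interval 1.03 to 3.76, adjusted p = 0.658) and 2.36 for HSP60 (1.20 to 3.53, adjusted p = 0.495).

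At 26 °C, the combined group against the high temperature group compares oxygen levels in warm water. The count was 0 of 10 in limma and in voom, where limma called 0.218% of all genes in either direction. An unadjusted p under 0.05 was found for 1 of 10 in limma and 2 in voom, and for 1038 and 855 of all 15615 genes. The fold changes ran from -0.32 for CCT7 to 1.32 for CCT2, and the chaperonin gene with the unadjusted p under 0.05 in limma was CCT3, at 1.21 (95% interval 0.10 to 2.33, adjusted p = 0.708). HSP60 differed by 0.63 with an interval of -0.53 to 1.80. Equal FPKM totals moved the median of all genes to -0.76 here and left 2 of 10 chaperonin genes positive, against 8 in the deposited scaling. The chaperonin median became -0.47. It exceeded that of all genes by 0.29, against 0.43 in the deposited scaling.

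The interaction asks whether the warming difference was larger under low oxygen than in the other pair. That pair holds the control, so it would differ in oxygen too if the control was at 3 mg/L. It gave 0 of 10 in limma, with 0 under an unadjusted 0.05, and the same in voom, where limma called 0.0512% of all genes in either direction. Under an unadjusted 0.05 were 1024 of all 15615 genes in limma and 962 in voom. The chaperonin estimates ran from -1.21 for CCT7 to 1.39 for HSP10, and their intervals were wide: for HSP60 -0.67 to 2.62 around 0.98. Equal FPKM totals left 1 of 10 estimates positive, against 7 in the deposited scaling. The chaperonin median was then -0.43, with -0.91 over all genes. A difference in the warming response between the oxygen groups as labelled was thus not detectable with these libraries.

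The summed CCT level gives the 8 subunits as a whole. It averaged 854 ± 468 FPKM in the combined group, 480 ± 52.6 FPKM at high temperature, 205 ± 37.5 FPKM in low oxygen and 179 ± 17.8 FPKM in the control (SD, n = 3 each). Each warm library, from 378 FPKM upward, was above each cool one, at most 245 FPKM. The spread of the combined group reached from 378 FPKM in combined 3 to 1313 FPKM in combined 2 and took in the range of the high temperature group.

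The transcripts of the subunits were not equal in amount per length, although the ring holds them in equal numbers. CCT4 was the most abundant subunit in 10 of 12 libraries; the exceptions were control 1, led by CCT2, and control 2, led by CCT1. CCT4 made up 29.4 ± 8.96% of the summed CCT FPKM in the combined group, 25.0 ± 6.23% at high temperature, 21.6 ± 2.10% in low oxygen and 21.2 ± 6.60% in the control (SD, n = 3 each), so the groups differed by less than their spread. CCT5 had 10.5 ± 0.56% in the combined group, against 15.3 ± 0.67% at high temperature, 15.1 ± 2.86% in low oxygen and 15.7 ± 1.83% in the control. Seen only after the values were known, its 3 combined libraries, 10.1 to 11.2%, lay below the other 9, of which low oxygen 1 was lowest at 12.5%. The ratio of the most to the least abundant subunit was 2.84 to 5.42 in 10 libraries, but 32.4 in combined 3 and 13.3 in control 1. In most libraries the least abundant was CCT6, whose model holds more than CCT6, so those ratios rest on that model. In combined 3 and control 1 it was CCT7.

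**Figure D3:**
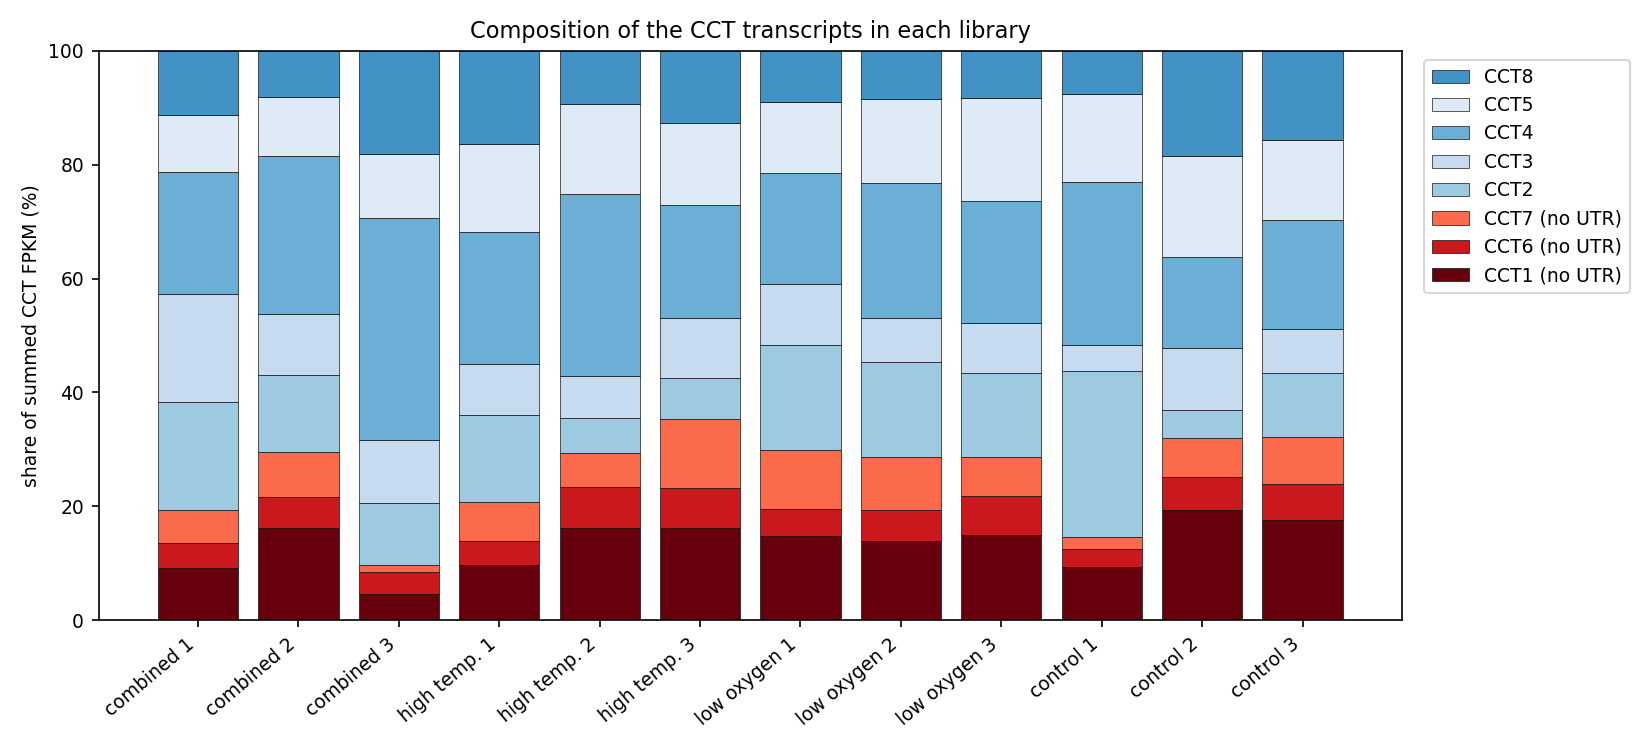
Share of each subunit in the summed CCT FPKM of every library, in percent. The models without an annotated UTR, CCT1, CCT6 and CCT7, are drawn in red at the bottom and take 9.64% in combined 3 and 14.7% in control 1, against 19.3 to 35.3% in the other libraries.

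The gene models differ in annotated untranslated regions (UTRs). CCT1, CCT6 and CCT7 have none, while the other 5 subunits carry 3′ UTRs of 1261 to 2321 bases, HSP10 one of 1134 and HSP60 one of 653. The 3 models without UTR took 19.3, 29.5 and 9.64% of the summed CCT FPKM in the combined libraries and 20.7, 29.3 and 35.3% in those of high temperature, against 29.9, 28.7 and 28.6% in low oxygen and 14.7, 32.03 and 32.3% in the control. Combined 3 and control 1 were lowest. The same libraries were low for such models across the table: the median log2 level of 4138 models without UTR, less that of 5268 models with a 3′ UTR of at least 500 bases, each relative to the gene's mean, was -0.69 in combined 3, -0.29 in combined 1 and -0.23 in control 1, and between -0.12 and 0.26 in the other 9. This was noticed after the values were seen, and its part in the differences between groups was not tested. Leaving out combined 3 and control 1 together, 7 of 10 genes passed at 26 °C against 18 °C. Of all 15615 genes 110 were then called higher, against 66 with every library.

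Across the 12 libraries the subunits varied together. Over the 28 pairs of CCT genes the Pearson correlation of log2(FPKM + 1) ran from 0.52 to 0.96 with a median of 0.81, highest for CCT5 with CCT6 and lowest for CCT2 with CCT7. Within groups the median was 0.60, with a range of -0.17 to 0.98. Among the models without UTR the correlation was 0.94 for CCT1 with CCT6, 0.94 for CCT1 with CCT7 and 0.86 for CCT6 with CCT7. CCT4 with CCT5, both with a UTR, had 0.91. Within groups those pairs without UTR had 0.98, 0.94 and 0.90, and CCT4 with CCT5 had 0.68. Pairs of subunits that both have a UTR ran from -0.17 to 0.76 within groups. CCT1 with CCT5, of which only CCT5 has a UTR, had 0.93. The part of the UTR in these correlations was not tested. HSP60 correlated with the subunits at a median of 0.83, HSP10 at 0.57, and HSP60 with HSP10 at 0.81. Within groups these were 0.42, 0.37 and 0.84. These are descriptions of 12 libraries that share their scaling and their differences in gene model coverage.

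Ratios of genes within a library do not depend on how libraries are scaled to each other, and 3 such ratios of HSP60 were formed after the values had been seen. They are therefore given as a description, with no test. HSP60 over HSP10 was 5.82, 6.57 and 7.12 in the combined libraries, 3.30, 5.59 and 2.60 at high temperature and 4.80, 6.29 and 2.14 in low oxygen, against 1.48, 1.75 and 1.496 in the control. The control was thus the lowest group, below each of the other 9 libraries, and the log2 difference between 26 °C and 18 °C was 0.95 with overlapping libraries.

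Mortalin (HSPA9) is the mitochondrial HSP70 that pulls proteins through the inner membrane and passes them on. HSP60 over mortalin was 39.4, 9.19 and 8.46 in the combined libraries and 8.94, 18.0 and 11.5 at high temperature, against 2.02, 2.41 and 2.04 in low oxygen and 4.53, 2.53 and 2.04 in the control. Citrate synthase opens the citric acid cycle and is a common measure of mitochondrial content, and HSP60 over citrate synthase was 37.0, 8.34 and 11.1 in the combined libraries and 6.11, 26.2 and 6.27 at high temperature, against 1.57, 2.36 and 2.27 in low oxygen and 4.69, 1.82 and 1.10 in the control. In both ratios every warm library was above every cool one, with log2 differences of 2.43 and 2.57. Leaving out any 1 library kept them between 2.12 and 2.80. Mortalin has a 3′ UTR of 1826 bases, but the citrate synthase model has no UTR, the kind of model that was low in combined 1, combined 3 and control 1.

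**Figure D4:**
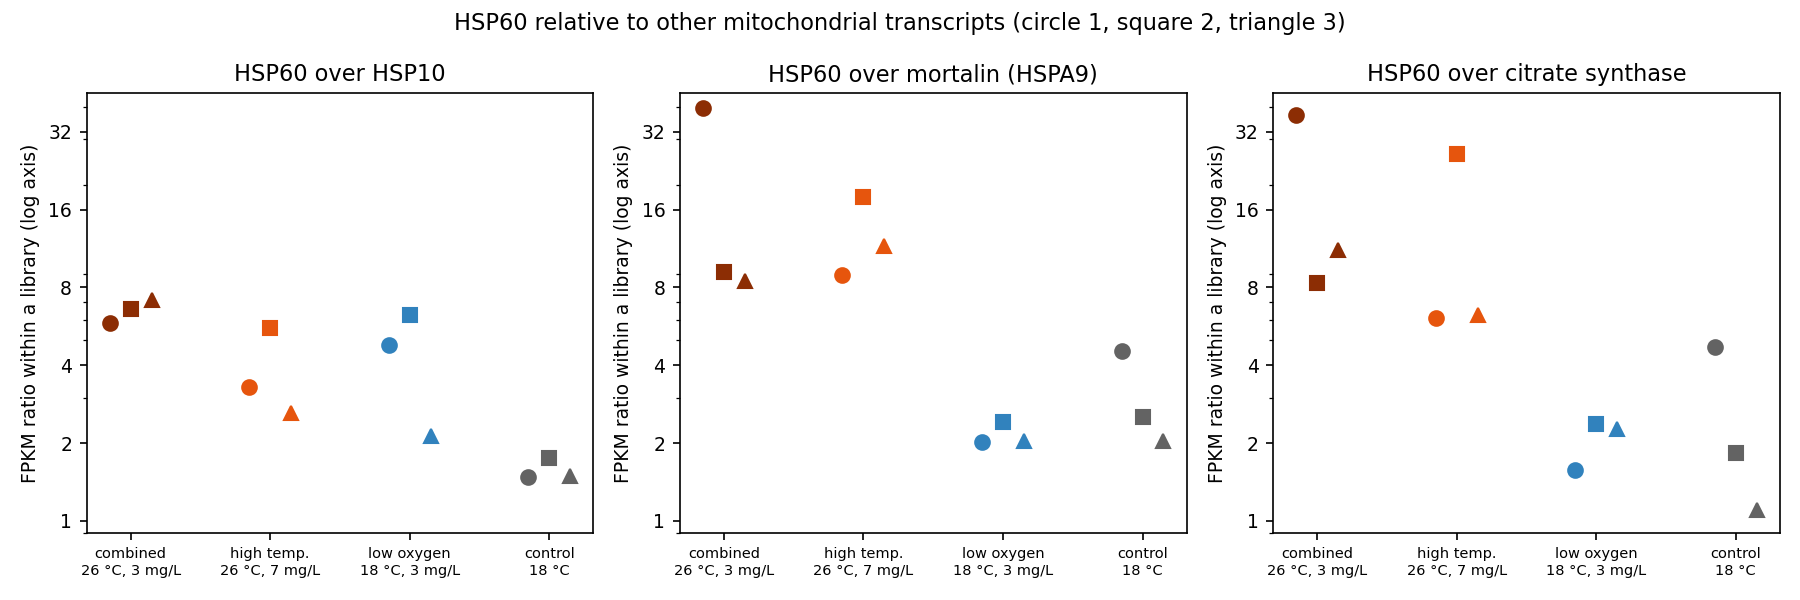
FPKM of HSP60 divided by that of HSP10, mortalin and citrate synthase in each library, log axis, with groups from left to right combined, high temperature, low oxygen and control. For mortalin and citrate synthase all 6 libraries at 26 °C are above the 6 at 18 °C, and for HSP10 the control libraries, 1.48 to 1.75, are lowest.

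The genes that work with the chaperonins were described through 8 lists of partners, substrates and other mitochondrial genes. In none of them did a gene pass at 26 °C against 18 °C in limma or in voom. Of all 15615 genes tested, 1790 had an unadjusted p under 0.05 in limma and 1726 in voom. In each tool the unadjusted p was under 0.05 in 0 of 6 prefoldin subunits and 0 of 4 further CCT partners. The same held for 5 of 15 tubulins, 3 of 22 models whose name begins with actin and 1 of 6 tubulin folding cofactors. It also held for 1 of 7 genes of mitochondrial folding and proteolysis, 0 of 16 of mitochondrial import and 0 of 4 measures of mitochondrial mass.

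Prefoldin had fold changes on both sides of 0, positive in 3 of its 6 subunits, with a median of 0.02 and a range of -0.49 to 0.45. Prefoldin subunit 6 measured 16.6 ± 5.52 FPKM in the combined group, 15.97 ± 3.29 FPKM at high temperature, 9.86 ± 4.92 FPKM in low oxygen and 14.4 ± 1.35 FPKM in the control (SD, n = 3 each), a log2 fold change of 0.45 at 26 °C (95% interval -0.21 to 1.11). The list of further CCT partners held phosducin-like proteins, which assist CCT in folding G protein and tubulin subunits, and thioredoxin domain-containing protein 9. It also held MKKS, a related protein named a putative chaperonin, at 0.08. The median of the list was 0.19, with thioredoxin domain-containing protein 9 highest at 0.66 (95% interval -0.03 to 1.34, limma adjusted p = 0.447).

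The lists named for the CCT substrates tubulin and actin had fold changes of both signs, none past the threshold. Of 15 tubulin models tested, 10 had positive fold changes with a median of 0.62. The model named tubulin beta chain came closest to the threshold, at 87.7 ± 74.8 FPKM in the combined group and 41.0 ± 6.23 FPKM at high temperature, against 14.4 ± 4.52 FPKM in low oxygen and 17.9 ± 6.08 FPKM in the control (SD, n = 3 each), with a log2 fold change of 1.71 (95% interval 0.89 to 2.53, limma adjusted p = 0.0878). Tubulin alpha chain evm_TU_Chr19_29 went the other way, at -1.71 (95% interval -3.00 to -0.43, adjusted p = 0.319). Of 22 models whose name begins with actin, 13 were positive, with a median of 0.20. Cytoskeletal actin evm_TU_Chr17_301 was at 1.37 (95% interval 0.19 to 2.55, adjusted p = 0.383). The list also holds actin-related and actin-binding proteins, so its median is not that of actin alone. Tubulin and actin occur in near-identical copies, and how the authors counted reads shared by copies is nowhere stated, so single models of these families are uncertain. The tubulin folding cofactors, which take over tubulin after CCT, had 1 positive fold change in 6 and a median of -0.30.

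Inside the mitochondrion the other folding genes had smaller fold changes than HSP60. Mortalin had a log2 fold change of 0.10 at 26 °C with an interval of -0.53 to 0.73, and the list of folding and proteolysis a median of 0.13. DNAJA3, a mitochondrial partner of mortalin, was its highest member, at 10.7 ± 7.60 FPKM in the combined group, 5.55 ± 2.41 FPKM at high temperature, 3.18 ± 0.405 FPKM in low oxygen and 3.43 ± 2.22 FPKM in the control (SD, n = 3 each), a log2 fold change of 0.95 (95% interval 0.17 to 1.73, limma adjusted p = 0.354). The other members included the nucleotide exchange factor GrpE at 0.18, the mitochondrial HSP90 TRAP1 (heat shock protein 75 kDa) at -0.34 and the protease subunit clpX at -0.85. The translocases of mitochondrial import had 5 positive fold changes in 16, with a median of -0.13. The measures of mitochondrial mass had medians near 0 as well, 0.09 over 4 genes, with 0.25 for ATP synthase subunit alpha, 0.13 for the channel VDAC2, 0.05 for ATP synthase subunit beta and -0.03 for citrate synthase.

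**Figure D5:**
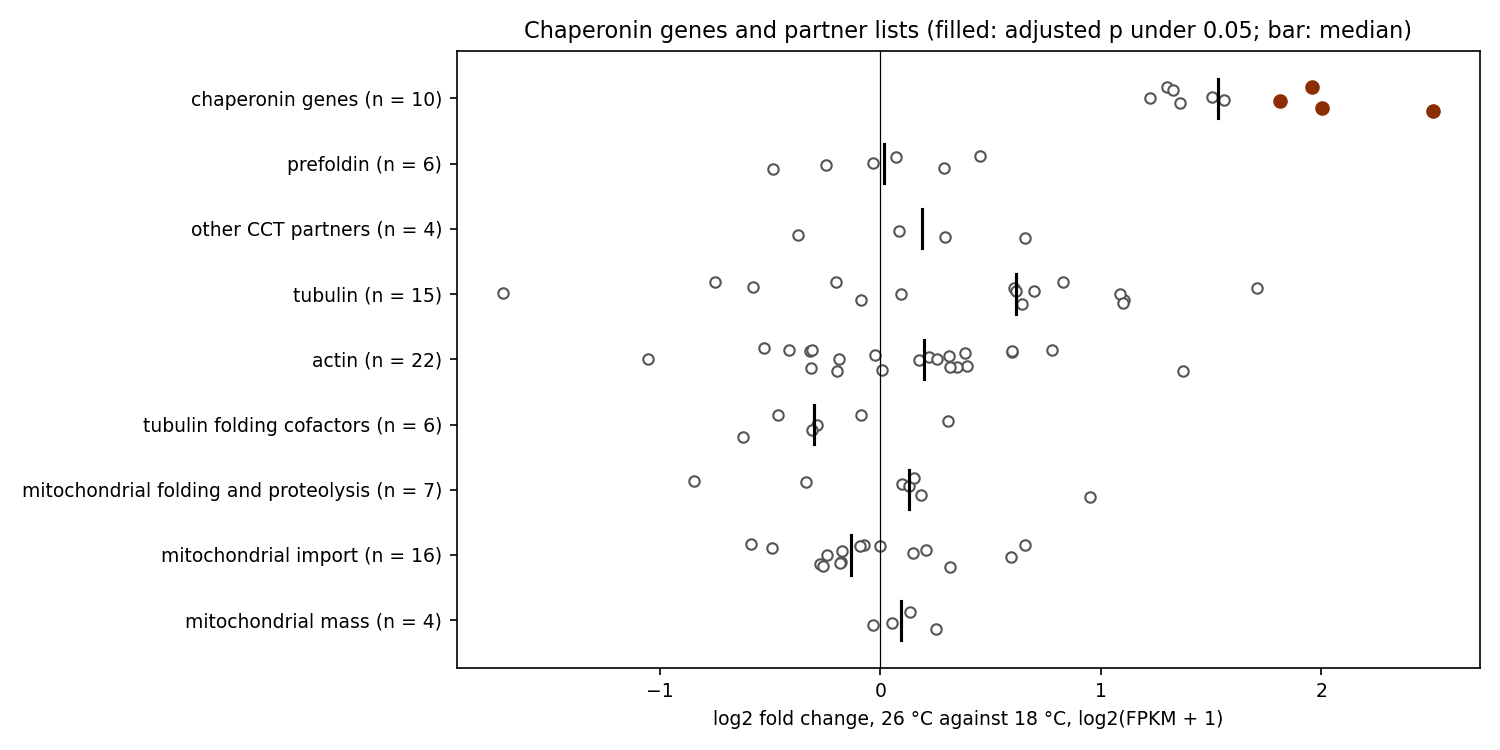
Log2 fold change at 26 °C against 18 °C of each chaperonin gene and of each tested member of the 8 lists, on the log2(FPKM + 1) scale; bars are medians and filled points had an adjusted p under 0.05. The chaperonin genes run from 1.22 to 2.51, and the list medians from -0.30 to 0.62.

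Cell type markers were measured beside these results, since cell composition can move with a group. Of 63 tested genes of cilia, which are built on tubulin, 60 had positive fold changes at 26 °C with a median of 0.71 and 0 past the threshold in limma or voom (14 and 18 at an unadjusted p under 0.05). All 15615 genes gave 1790 and 1726 at that level. The 75 cilia models summed to 247 to 1546 FPKM in the combined group and 306 to 477 FPKM at high temperature, against 225 to 334 FPKM in low oxygen and 125 to 241 FPKM in the control, with none at 0. Of 6 muscle genes all were positive, with a median of 0.56, and of 19 digestive enzyme genes 5 were, with a median of -0.53. The 30 digestive enzyme models summed to 130 to 825 FPKM in the combined group and 98.6 to 480 FPKM at high temperature, against 154 to 452 FPKM in low oxygen and 361 to 2059 FPKM in the control. Markers of coelomocytes, the immune cells of the body cavity, had a median of -0.23 over 18 genes, those of neurons 0.11 over 20 and those of the germ line -0.30 over 3. For combined against control the median of the 6 muscle genes was 1.006, and 3 of them and 8 of 18 coelomocyte genes had an unadjusted p under 0.05 in limma, with 0 past the threshold. Among all 15615 genes, 2148 had such a p in that comparison. The part of cell composition in the chaperonin differences was not tested.

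Genes whose levels followed the chaperonins most closely were taken as the 6 named models with the highest Pearson correlation over the 12 libraries. For the mean of the standardized levels of the 8 CCT genes these were STIP1 (r = 0.97), CDC37 (0.96), SIL1 (0.96), DNAJA2 (0.95), DNAJB6-A (0.95) and CHORDC1 (0.94). STIP1, also called HOP, links HSP70 to HSP90, and CDC37 brings kinases to HSP90. STIP1 measured 237, 434 and 44.5 FPKM in the combined group and 55.1, 127 and 65.9 FPKM at high temperature, against 15.8, 13.2 and 12.1 FPKM in low oxygen and 14.0, 11.9 and 13.6 FPKM in the control. Like CCT1, CCT5, CCT6, CCT7 and HSP10, STIP1 was lowest among the warm libraries in combined 3. Like CCT5 and CCT6, and unlike CCT1, CCT7 and HSP10, it did not overlap the cool libraries. Of these 6 models 2, CDC37 and DNAJB6-A, have no UTR.

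For HSP60 the closest were DNAJB11 (r = 0.96), ZPR1 (0.96), CSN8 (0.94), RUVBL1 (0.93), DHX15 (0.93) and RC3H1 (0.93). DNAJB11 is an HSP40 of the endoplasmic reticulum, RUVBL1 an ATPase of several complexes and DHX15 an RNA helicase of splicing. DNAJB11 measured 42.0, 32.04 and 29.6 FPKM in the combined group and 24.3, 30.9 and 33.9 FPKM at high temperature, against 14.4, 9.39 and 13.6 FPKM in low oxygen and 13.5, 13.9 and 11.7 FPKM in the control. It separated the temperatures as HSP60 did, over a narrower range. These correlations describe 12 libraries in 4 groups, and any gene that differs between the temperatures is drawn toward the same order.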

How the data were processed

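Poly(A) RNA of single animals was sequenced on an Illumina HiSeq platform, per the labels' protocols. The deposited table gives FPKM for 26461 models, per the file headers, and positions and lengths in bases. Which aligner, counter and genome build were used is not given in the sources at hand. FPKM times model length gave whole fragments for 100% of values within 0.001 of a fragment, which showed the library size inside each FPKM. No column was left out.

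FPKM were analysed as log2(FPKM + 1) after keeping models with at least 1 FPKM in at least 3 libraries. Fold changes on this scale understate those of low genes. A group-means model was fitted to all 12 libraries with limma 3.58.1 in R 4.3.3 (empirical Bayes with a trend), 8 contrasts were tested on both sides, with Benjamini-Hochberg adjustment over the 15615 genes tested. The 26 °C against 18 °C contrast weights the groups equally. The fit was tested on simulated data. Every adjusted p of a gene is from limma. Summaries were made in Python 3.11.15 with numpy 2.4.6, pandas 2.3.3 and matplotlib 3.10.9.

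Members and lists were chosen with earlier results of these data known. Named genes were all 10 chaperonin genes, up to 4 members per list with the smallest adjusted p at 26 °C, and the 6 closest named models each; mortalin, SF3B1 and the ratios were added after their values were seen. Lists were matched by words in the Swiss-Prot name, so the actin list also holds actin-related and actin-binding proteins. UTRs were read from the deposited annotation. No sequence or annotation that could be linked to the models was at hand, so none is printed. Alternatives were another pseudocount (0.1), no filter or a filter at 5 FPKM, equal FPKM totals, library weights, only the groups compared, voom on recovered fragments, a block by replicate number and leaving out libraries.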

Additional observations from a re-analysis of the deposited data

How the results depend on the processing

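Between groups at 26 °C and groups at 18 °C, the directions of the fold changes held more widely than the counts of genes past the threshold. For combined against control (4 genes) the count was 2 with a pseudocount of 0.1, without a filter and in voom. It was 1 with the replicate block, and 0 with equal totals and with only the groups compared. Leaving out 1 library gave 0 to 8. Over all genes, 93 were called higher in the main fit. That number was 68 with the pseudocount of 0.1, 65 of 23434 without a filter, 57 in voom and 72 with the replicate block. It was 37 with equal totals, 30 with only the groups compared, and 43 to 186 with 1 library left out. For combined against low oxygen (3 genes) the chaperonin count was 0 with equal totals, with only the groups compared and with the replicate block. It was 5 without combined 3 and control 1 together (chosen after seeing the data), and 0 to 5 with 1 library left out. Genes called higher over all were 62 in the main fit, 21 with equal totals, 22 with only the groups compared and 59 with the replicate block. They were 98 without combined 3 and control 1, and 32 to 111 with 1 library left out. For 26 °C against 18 °C (4 genes) the chaperonin count was 0 with equal totals, 7 without combined 3 and control 1, and 3 with the replicate block. It was 3 to 7 with 1 library left out. Genes called higher over all were 66 in the main fit, 23 with equal totals, 110 without combined 3 and control 1, and 59 with the replicate block. They were 49 to 123 with 1 library left out. Library weights added CCT5 and CCT6, while those called higher over all went from 66 to 140. Without combined 1 and combined 3, which left 1 combined library, the chaperonin median was 2.06. For high temperature against control (0 genes) library weights gave 3, while over all genes those called higher went from 7 to 71. Equal totals turned HSP10 in combined against control to -0.24 and CCT7 in combined against low oxygen to -0.30, while the medians of all genes moved to -0.77 and -0.88 there, so both stayed above them; the cause was not tested. CCT7 in combined against low oxygen was -0.16 without combined 2. CCT3 at 26 °C passed in 9 of 21 alternatives, and CCT4, CCT8 and HSP60 in 20 each. Deviations from the group means correlated at r from -0.17 to 0.18 (median 0.07) between samples with the same number. With different numbers r was -0.37 to 0.38 (median -0.01). No pairing by number was thus seen, though a weak one could go undetected with 3 samples a group. CCT7 rested on only 33 fragments in combined 3 and 46 in control 1, which limits its values there.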
